A study of Homo sapiens with 6 samples.

Results

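The genes described here encode parts of the nuclear RNA exosome and the factors that bring RNA to it. The 10 genes were taken by name from the combined count table, which lists 58051 Ensembl genes, for their role and not by a threshold on a measured value. All 10 matched a single Ensembl identifier, and all 10 passed the filter on low counts that left 16974 genes for testing. They are the nucleases EXOSC10 and DIS3, the exosome subunit EXOSC3, the EXOSC10 cofactors C1D and MPHOSPH6, ZCCHC8 and RBM7 of the NEXT complex, and ZFC3H1, PABPN1 and ZC3H3 of the PAXT connection.

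The exosome is a barrel of protein subunits that degrades RNA from its tail end. In the nucleus it trims precursors of stable RNAs and removes promoter upstream transcripts, enhancer RNAs and mRNAs that were wrongly processed or kept in the nucleus. The helicase MTREX feeds RNA into it. ZCCHC8 and RBM7 join MTREX to form the nuclear exosome targeting complex (NEXT), which acts mostly on short RNAs without a poly(A) tail. ZFC3H1 links MTREX to the nuclear poly(A)-binding protein PABPN1 and to ZC3H3, and this poly(A) tail exosome targeting connection (PAXT) acts on polyadenylated RNAs.

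RNA was sequenced from 6 cultures of AIDTPR cells. These are DLD-1 cells, a human colorectal cancer line, in which both alleles of the nucleoporin gene TPR carry an auxin-inducible degron with NeonGreen and the RCC1 locus supplies the TIR1 ligase that auxin needs for degrading the tagged protein. The 3 LMB cultures received Leptomycin B, an inhibitor of the export receptor CRM1, at 200 nM for 3 h, and the 3 LMB+auxin cultures received the same Leptomycin B plus 1 mM auxin during the last 2 h, with no auxin in the LMB cultures. Since every culture carried the tags and received Leptomycin B, values below show what auxin added and nothing about Leptomycin B itself, and loss of TPR cannot be told apart from other effects of auxin. The tagged cells were isolated as clones, and the number of clones behind these cultures was not given in the sources used here.

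Total counts ran from 28261903 to 35992425 per library. The 5 colon epithelial markers (EPCAM, CDH1, KRT8, KRT18 and VIL1) lay at 18 to 3635 CPM (the count scaled to library size), while PTPRC, COL1A1, PECAM1 and DES, which mark other cell types, stayed at or below 0.75 and were listed at 0 in at least 1 library for 2 of the 4. TPR RNA, which auxin does not target, had a log2 fold change of 0.17 ± 0.07 (SE, edgeR adjusted p of 0.954, and 0.0136 with the replicate block described below). TIPARP, a gene that answers to ligands of the aryl hydrocarbon receptor, had a log2 fold change of 0.61 (adjusted p of 0.261, and 4.43e-19 with the block), and CYP1A1, another such gene, 1.16 (0.644 and 0.181).

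The comparison of LMB+auxin with LMB asks whether the machinery for nuclear RNA decay changes at the RNA level when TPR is degraded under a CRM1 block. None of the 10 genes passed the test. The edgeR quasi-likelihood test called 0 of 10 at an adjusted p under 0.05 with a threshold of 1.3-fold in either direction, and DESeq2 and limma-voom also called 0. Over all 16974 tested genes 1 was called, or 0.00589%. No member had an unadjusted p under 0.05, against 4.37% of all tested genes, and the groups overlapped for all 10, against 11.5% of tested genes whose groups were apart. Log2 fold changes of the members ran from -0.16 for RBM7 to 0.16 for ZCCHC8, with 5 above 0 and 5 below and a median of 0.0046, beside a median of -0.0027 over all tested genes. These are levels in whole cultures, where fewer cells with an RNA and less RNA per cell cannot be told apart.

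The 95% interval of the fold change lay inside 1.3-fold either way for 9 of the 10 genes, and did so for 57.1% of all tested genes. The exception was RBM7, whose interval reached from 0.748-fold to 1.08-fold. PABPN1 had the narrowest interval among the members (0.917-fold to 1.11-fold). The width of an interval also depends on the count. All tested genes include genes near the filter of 1 CPM, while each member had at least 220 counts per library. The share of 57.1% is thus not matched for level.

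**Figure D1:**
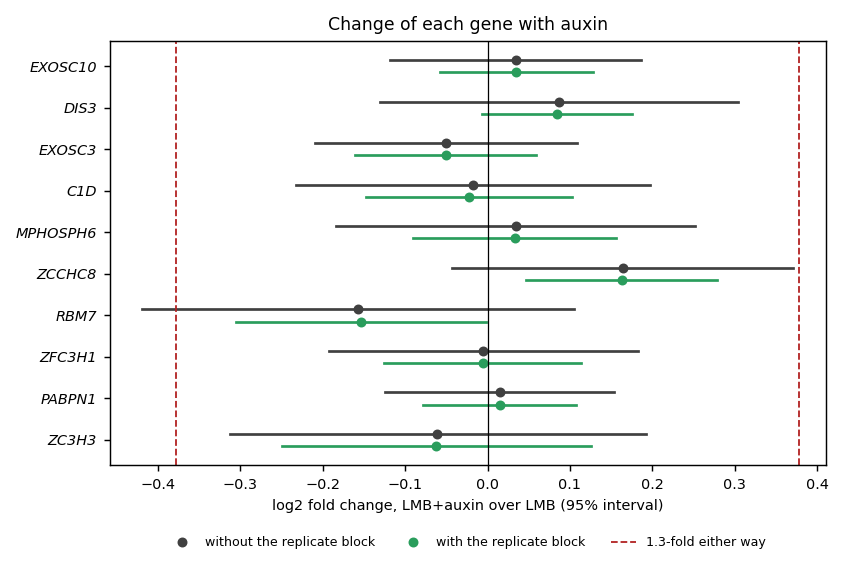
Log2 fold change of each member (x axis, LMB+auxin over LMB) with its 95% interval from edgeR, without (grey) and with (green) the replicate number as a block, and dashed lines at 1.3-fold. The points run from -0.16 to 0.16, and 1 grey interval, that of RBM7, crosses a dashed line.

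Replicates with the same number in both groups deviated together over all genes, so the fit was repeated with the replicate number as a block, which compares each LMB+auxin culture with the LMB culture of its number. With the replicate block, 0 of the 10 members was called, against 1.18% of all tested genes (201 genes). An unadjusted p under 0.05 was reached by 2 of the 10, ZCCHC8 and RBM7, which is 20% beside 19.9% of all tested genes. The lowest adjusted p among the members with the block was 0.0906 by edgeR, for ZCCHC8, and all 10 intervals then lay inside 1.3-fold. The direction was the same in all 3 pairs for 3 members (DIS3, ZCCHC8 and RBM7), or 30%, while 41.9% of tested genes had such agreement.

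EXOSC10 and DIS3 are the nucleases of the nuclear exosome. EXOSC10 (ENSG00000171824, chromosome 1, 11066618 to 11099869, minus strand, 25 exons in GENCODE 44 on GRCh38, as for all positions below) was at 146, 138 and 156 CPM, here after TMM scaling, in LMB replicates 1, 2 and 3. It was at 153, 146 and 151 CPM in LMB+auxin replicates 1, 2 and 3. All 3 auxin values lay within the LMB range, and the log2 fold change was 0.03 ± 0.07 (SE, edgeR adjusted p of 0.971).

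DIS3 (ENSG00000083520, chromosome 13, 72752169 to 72782096, minus strand, 21 exons), which combines exonuclease and endonuclease activity, was at 179.6, 162 and 190.0 CPM in LMB replicates 1, 2 and 3. In LMB+auxin it was at 202, 163 and 199 CPM. Replicate 2 was the lowest library of both groups, by more than the groups differed, and the log2 fold change was 0.09 ± 0.10 (SE, adjusted p of 0.956, and 0.296 with the block).

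EXOSC3 (ENSG00000107371, chromosome 9, 37759234 to 37832117, minus strand, 4 exons) encodes an RNA-binding subunit of the exosome cap. It was at 51.0, 50.1 and 48.0 CPM in the LMB libraries and at 51.2, 45.7 and 47.0 CPM with auxin, in the order of the replicates. The groups overlapped, with a log2 fold change of -0.05 and a standard error of 0.07 (adjusted p of 0.958).

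C1D and MPHOSPH6 are small proteins that bind RNA and help EXOSC10 and MTREX dock on the exosome. C1D (ENSG00000197223, chromosome 2, 68041130 to 68110948, minus strand) was at 29.5, 28.0 and 28.5 CPM in the LMB libraries and at 31.9, 25.2 and 27.8 CPM with auxin. The auxin libraries spread around the LMB values on both sides, with a log2 fold change of -0.02 (standard error 0.10). MPHOSPH6 (ENSG00000135698, chromosome 16, 82147798 to 82170224, minus strand) was at 31.2, 27.1 and 28.3 CPM in the LMB libraries and at 32.1, 26.2 and 30.3 CPM with auxin, a log2 fold change of 0.03 (standard error 0.10). Replicate 1 was the highest and replicate 2 the lowest in both groups for both genes.

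With all 6 libraries, the members of NEXT had the highest and the lowest of the 10 log2 fold changes. ZCCHC8 (ENSG00000033030, chromosome 12, 122471600 to 122500932, minus strand, 14 exons), the zinc-knuckle scaffold of NEXT, was at 39.1, 33.6 and 36.6 CPM in the LMB libraries and at 44.1, 36.5 and 41.8 CPM with auxin. It was higher with auxin in 3 of 3 pairs, by 0.17, 0.12 and 0.19 log2 units. Auxin replicate 2 lay below LMB replicates 1 and 3, so the groups overlapped. The log2 fold change was 0.16 ± 0.09 (SE, adjusted p of 0.954, and 0.0906 with the block).

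RBM7 (ENSG00000076053, chromosome 11, 114400030 to 114414203, plus strand, 5 exons), the RNA-binding subunit of NEXT, was at 13.6, 17.3 and 14 CPM in the LMB libraries and at 12.9, 14.6 and 12.8 CPM with auxin. It was lower with auxin in 3 of 3 pairs, with log2 differences of -0.08, -0.24 and -0.13. Replicate 2 was the highest library of both groups, and auxin replicate 2 exceeded LMB replicates 1 and 3. The log2 fold change was -0.16 ± 0.12 (SE, adjusted p of 0.954, and 0.243 with the block). Its place as the lowest member rested on LMB replicate 2. Without LMB+auxin replicate 2, RBM7 stayed lowest at -0.22, with ZC3H3 at -0.11. Without LMB replicate 2, RBM7 was at -0.03 and ZC3H3 was lowest at -0.10, and with the block and without pair 2, RBM7 was at -0.10 and ZC3H3 at -0.15.

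Per base of exonic sequence, the level of ZCCHC8 RNA over that of RBM7 RNA was 2.53, 1.71 and 2.29 in LMB and 3.01, 2.19 and 2.87 in LMB+auxin. The ratio was larger with auxin by 1.19, 1.28 and 1.25 times in the 3 pairs, while the groups still overlapped. This pair was singled out after its values were seen and the ratio was not tested.

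The promoters of ZCCHC8 and RBM7 are printed because these members had the highest and the lowest log2 fold change over all 6 libraries. Each is a window of 300 bases around the RefSeq start site (GRCh38.p14), most of it upstream, written 5′ to 3′ on the strand of the gene, and capitals mark matches to the motifs searched. ZCCHC8 is at chr12:122500883-122501182, minus strand, and RBM7 is at chr11:114400416-114400715, plus strand. The RBM7 window lies wholly downstream of the GENCODE start of the gene at 114400030, which is the start used for distances to neighbouring genes below.
ZCCHC8: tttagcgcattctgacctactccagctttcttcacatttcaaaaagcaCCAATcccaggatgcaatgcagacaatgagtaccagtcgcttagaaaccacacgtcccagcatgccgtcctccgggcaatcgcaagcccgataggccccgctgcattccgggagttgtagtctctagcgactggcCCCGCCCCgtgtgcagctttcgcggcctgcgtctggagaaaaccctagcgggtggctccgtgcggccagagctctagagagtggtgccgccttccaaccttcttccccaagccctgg
RBM7: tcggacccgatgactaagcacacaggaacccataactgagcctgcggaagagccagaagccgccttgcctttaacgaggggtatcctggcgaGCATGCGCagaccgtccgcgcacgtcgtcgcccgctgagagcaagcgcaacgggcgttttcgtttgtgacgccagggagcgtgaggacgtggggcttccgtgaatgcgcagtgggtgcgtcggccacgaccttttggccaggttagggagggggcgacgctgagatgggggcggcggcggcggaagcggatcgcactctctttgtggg

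G and C made up 58.7% of the ZCCHC8 window, which held 19 CpG dinucleotides, and 64.7% of the RBM7 window, which held 34. Both strands were searched for the TATA box TATAAA, the CCAAT box, the ETS core CCGGAAG, the cAMP response element TGACGTCA, the NRF1 core GCATGCGC, the SP and KLF motif GGGGCGGG and the YY1 motif AAGATGGC. The ZCCHC8 window held CCAAT and GGGGCGGG once each, found in 34.6% and 22.6% of 35116 RefSeq promoter windows of this length. The RBM7 window held GCATGCGC once, found in 3.05% of windows, and the motif matches of the windows did not overlap. No motif searched was in both. Of the 9 members with an entry in that promoter set, 4 held a CCAAT box, 2 each held the ETS, NRF1 and SP motifs, and 0 held a TATA box, which 11.5% of all windows hold, a cAMP response element (1.85%) or a YY1 motif (2.89%). The ETS core was in 10.3% of windows.

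The log2 fold changes of the PAXT members ran from -0.06 to 0.01. ZFC3H1 (ENSG00000133858, chromosome 12, 71609599 to 71667725, minus strand, 35 exons), the zinc finger scaffold that joins MTREX to the poly(A)-bound protein, was at 30.9, 34.3 and 32.1 CPM in the LMB libraries and at 30.4, 35.1 and 31.4 CPM with auxin. Replicate 2 was the highest of both groups, and the log2 fold change was -0.01 ± 0.08 (SE, adjusted p of 0.995).

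PABPN1 (ENSG00000100836, chromosome 14, 23321457 to 23326163, plus strand, 7 exons) coats the poly(A) tails of nuclear RNAs. It was at 155, 149 and 149.8 CPM in the LMB libraries and at 156, 147 and 156 CPM with auxin, with a log2 fold change of 0.01 and a standard error of 0.06 (adjusted p of 0.986). The readthrough gene BCL2L2-PABPN1 shares 1447 exonic bases with it, or 39.3% of the exonic bases of PABPN1, so the 2 genes can share reads. BCL2L2-PABPN1 was at 96.7 ± 1.45 CPM without auxin and 97.0 ± 1.10 CPM with it (SD, n = 3 per group).

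ZC3H3 (ENSG00000014164, 12 exons), a CCCH zinc finger protein of PAXT, had the fewest counts of the 10 genes, between 220 and 321 per library. It was at 7.94, 7.63 and 8.93 CPM in the LMB libraries and at 7.43, 8.41 and 7.68 CPM with auxin. The pairs differed in direction, with -0.09, 0.14 and -0.22 log2 units with auxin, and the log2 fold change was -0.06 ± 0.11 (SE, adjusted p of 0.967).

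**Figure D2:**
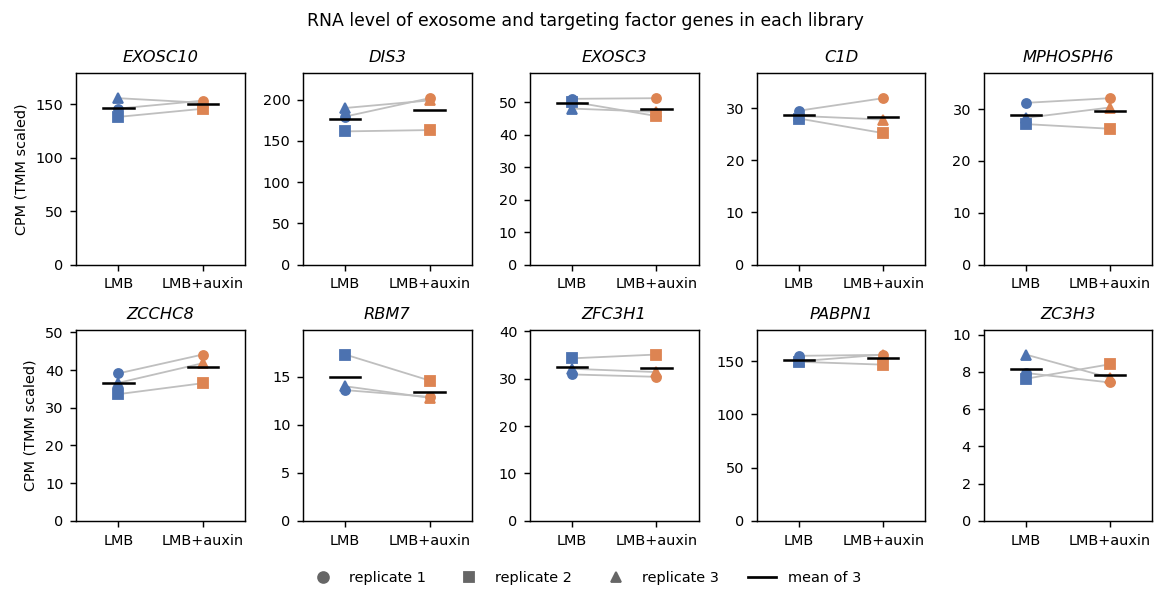
CPM after TMM scaling (y axis, from 0) of the 10 members in LMB (blue) and LMB+auxin (orange), with marker shapes and grey lines for the replicate number and black bars for means of 3. The groups overlap in every panel, and the 3 lines slope the same way for DIS3, ZCCHC8 and RBM7.

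The levels of the members varied more with the replicate number than with the treatment. Of the variation of log2 CPM over the 6 libraries, differences between replicate numbers took a median of 68.7% over the 10 genes and the treatment 9.86%, beside 61.1% and 13.0% over all tested genes. The replicate number has more levels than the treatment, so a larger share for it is likely even where neither has an effect. The share of the replicate number was largest for ZFC3H1 (96.1%) and MPHOSPH6 (90.1%), and that of the treatment for ZCCHC8 (38.3%) and RBM7 (26.5%). ZC3H3 differed from the other 9, with 24.1% for the replicate number, 9.92% for the treatment and 66.0% for neither. In replicate 2 of both groups, EXOSC10, DIS3, C1D, MPHOSPH6, ZCCHC8 and PABPN1 were the lowest of their group, and RBM7 and ZFC3H1 were the highest.

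**Figure D3:**
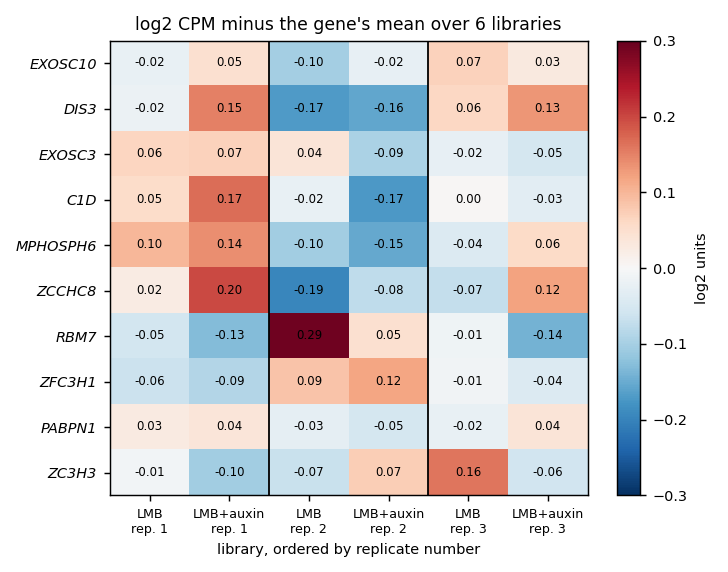
Log2 CPM centred on each gene's mean of the 6 libraries (colour and printed values, in log2 units), with the libraries (x axis) ordered by replicate number. Values run from -0.19 to 0.29, and the replicate 2 columns are low for DIS3, MPHOSPH6 and ZCCHC8 and high for RBM7 and ZFC3H1 with and without auxin.

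Levels of different genes were compared as CPM per kb of exonic sequence, over the 6 libraries together. The lengths came from a later GENCODE version than the paper names for its RNA-seq counts. The lengths may thus include exons on which no reads were counted, and the effect on levels per kb was not tested. PABPN1 was highest at 41.3 ± 1.10 (SD, n = 6), followed by EXOSC10 at 24.8 ± 1.06, DIS3 at 16.9 ± 1.62 and MPHOSPH6 at 13.4 ± 1.08. C1D (7.99 ± 0.621), EXOSC3 (6.37 ± 0.293), ZCCHC8 (4.30 ± 0.428) and ZFC3H1 (3.43 ± 0.202) came next. ZC3H3 (2.15 ± 0.152) and RBM7 (1.80 ± 0.211) were lowest, and they were the only neighbours in this order whose ranges over the libraries overlapped. Among the members, PABPN1 and EXOSC10 share the largest parts of their exonic bases with another gene. PABPN1 shares 39.3% with BCL2L2-PABPN1, itself at 40.9 CPM per kb, and EXOSC10 shares 36.7% with the antisense RNA ENSG00000226849. The effect of shared reads on this order was not tested.

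The order depends on the length used. Per kb of the canonical transcript, EXOSC3 came next after PABPN1 and EXOSC10 at 26.9 ± 1.24 (SD, n = 6), with a range overlapping that of MPHOSPH6 (26.5 ± 2.15), DIS3 stood below both at 17.3 ± 1.66, and RBM7 (3.93 ± 0.461) was above ZC3H3 (2.45 ± 0.173). PABPN1 and EXOSC10 kept the first places, and ZCCHC8 stayed above both ZFC3H1 and RBM7. Within the partners, the level of PABPN1 per exonic base was 12 ± 0.840 times that of ZFC3H1 in LMB and 12.2 ± 1.3 times in LMB+auxin (SD, n = 3 each), and that of DIS3 was 0.668 ± 0.0183 and 0.692 ± 0.0629 times that of EXOSC10. Per base of the canonical transcript, the same mean ratios were 18.2 and 18.5 for PABPN1 over ZFC3H1, and 0.319 and 0.331 for DIS3 over EXOSC10.

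**Figure D4:**
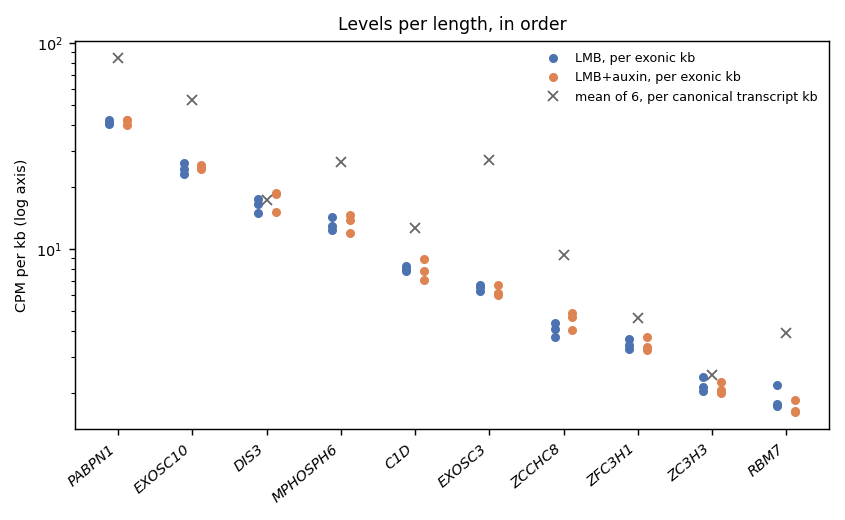
CPM per kb of exonic sequence (y axis, log scale) in each LMB (blue) and LMB+auxin (orange) library for the 10 members in falling order, with crosses for the mean of 6 libraries per kb of the canonical transcript. PABPN1 is highest and ZC3H3 and RBM7 are lowest, and the colours overlap for every gene.

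Several members share exons or a start region with other genes, so their counts are uncertain, also where the genes lie on opposite strands. The share of exonic bases does not give the share of reads that is uncertain. Genes of at least 300 exonic bases that lay to at least 95% inside the exons of another gene, itself with 1000 or more counts on average, had a median count per base of 1.48 times that of the outer gene over 196 pairs on opposite strands, and of 0.478 times over 81 pairs on the same strand. The long noncoding RNA ENSG00000226849, antisense to EXOSC10, covers 36.7% of its exonic bases and had a log2 fold change of 0.07 (adjusted p of 0.957). BORA shares 10.9% of the exonic bases of DIS3 and had a log2 fold change of 0.13, and C11orf71 shares 6.11% of those of RBM7 and had -0.15, neither called in either edgeR fit.

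EXOSC3 overlaps DCAF10, TRMT10B and ENSG00000255872 over 5.90% of its exonic bases or less each, with log2 fold changes of 0.07, 0.10 and 0.04. RBM7 also shares 5.47% with ENSG00000255663, at -0.03, and EXOSC10 shares 2.49% with EXOSC10-AS1, also at -0.03. None of these genes was called with or without the block. Among 11 pseudogenes named after 5 of the members, 1 passed the filter, C1DP1, with 33 to 54 counts per library beside at least 734 for C1D.

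A gene on the opposite strand starts within 1000 bases of the start of 6 members. PIBF1, whose start lies 37 bases from that of DIS3, had a log2 fold change of 0.22 and an adjusted p of 0.954, or 0.0306 in the blocked fit, below the fold change threshold, while DIS3 itself was at 0.09. RN7SKP175, near ZC3H3, was at 1.38 ± 0.128 CPM without auxin and 1.03 ± 0.118 CPM with it (SD, n = 3 per group), with groups that did not overlap and a log2 fold change of -0.42 (adjusted p of 0.954, and 0.236 with the block). It had only 26 to 48 counts per library, near the filter of 1 CPM. The other partners were EXOSC10-AS1, C11orf71, ENSG00000275265 near ZCCHC8, which had 4 to 15 counts per library, and MPHOSPH6-DT, which was listed at 0 in all 6.

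The tested genes most like ZCCHC8, the member with the smallest unadjusted p, were sought by the root mean square difference of mean-centred log2 CPM over the 6 libraries. They were the long noncoding RNA ENSG00000273138 (0.017 log2 units), AP4S1 (0.020) and VPS33A (0.022), beside a median of 0.183 over all tested genes. Their log2 fold changes were 0.15, 0.15 and 0.13. These were bound to lie near that of ZCCHC8, because the genes were picked for likeness over the same 6 libraries.

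Other genes of the exosome pathways were read from the same fits. All 35 listed genes passed the filter and 0 were called by edgeR with or without the block, by DESeq2 or by limma-voom, and an unadjusted p under 0.05 was reached by 0 of them without the block and by 9 with it (25.7%, beside 19.9% of all tested genes). Their median log2 fold change was 0.05, with 23 genes above 0 and 12 below, or 65.7% above 0 beside 49.2% of all tested genes. The 8 other exosome core genes had 4 above 0 and 4 below, and ran from -0.14 to 0.11.

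MTREX, the helicase common to NEXT and PAXT, was at 220.0, 199 and 223.5 CPM in the LMB libraries and at 252, 206 and 236 CPM with auxin. It was higher in 3 of 3 pairs with overlapping groups, and the log2 fold change was 0.11 ± 0.09 (SE, adjusted p of 0.954, and 0.151 with the block). The 5 genes of cap-linked targeting, which are the cap-binding proteins NCBP1, NCBP2 and NCBP3 and the cap-associated factors SRRT and ZC3H18, ran from 0.00 to 0.10. The 3 genes of TRAMP, a complex that adds short tails to nuclear RNAs for decay, ran from -0.14 to 0.18.

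The cytoplasmic exosome uses DIS3L in place of DIS3 and is served by the SKI complex. DIS3L was at 41.6 ± 2.05 CPM without auxin and 43.7 ± 3.60 CPM with it (SD, n = 3 per group), a log2 fold change of 0.07 (adjusted p of 0.957), and the 5 genes of this group ran from -0.03 to 0.15. Among all 35 genes the 95% interval passed 1.3-fold for 4 genes, named after their values were seen, which were EXOSC6, EXOSC9, ZCCHC7 and SNHG10. The other 31 intervals lay inside, beside 57.1% of all tested genes, a share not matched for level. With the block all 35 intervals lay inside.

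**Figure D5:**
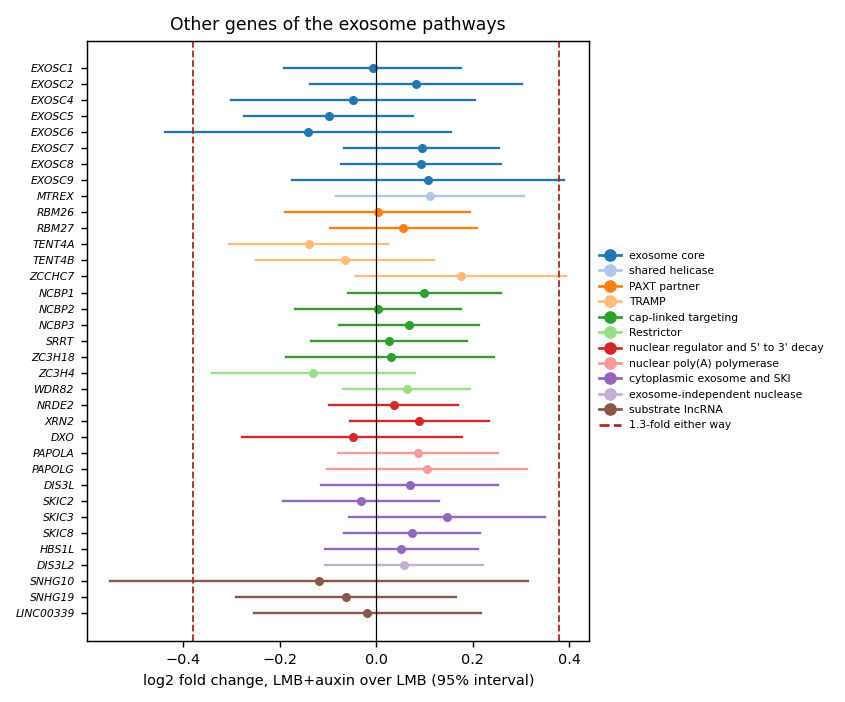
Log2 fold change (x axis, LMB+auxin over LMB) with its 95% interval for the 35 other pathway genes, coloured by role, and dashed lines at 1.3-fold. The points run from -0.14 to 0.18, and the intervals of EXOSC6, EXOSC9, ZCCHC7 and SNHG10 reach past a dashed line.

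The spliced noncoding RNAs SNHG10, SNHG19 and LINC00339 are known substrates of PAXT and were on the list of pathway genes. Their exons also overlap other genes, so their counts may not stem from the spliced RNA alone. SNHG10 exons hold all of the small RNA SCARNA13 (5.06% of the exonic bases of SNHG10) and share 5.54% with GLRX5. SNHG19 exons hold all of the small RNAs SNORD60 (13.5%) and ENSG00000281010 (13.0%), and LINC00339 shares 17.2% with LINC01635. SNHG10 was at 17.6, 11.6 and 16.0 CPM in the LMB libraries and at 17.1, 10.6 and 14 CPM with auxin, with replicate 2 lowest in both groups and a log2 fold change of -0.12 (standard error 0.19). SNHG19 was at 22.0 ± 1.54 and 21.0 ± 2.25 CPM and LINC00339 at 9.41 ± 0.662 and 9.29 ± 0.504 CPM in LMB and LMB+auxin (SD, n = 3 each), with log2 fold changes of -0.06 and -0.02. None of the 3 was called with or without the block, and the lowest adjusted p was 0.358, with the block. Neither protein levels nor decay rates were measured.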

How the data were processed

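Ribosome-depleted total RNA from 3 LMB and 3 LMB+auxin cultures, described as independent biological replicates, was sequenced as stranded paired-end libraries. The authors deposited raw read counts per Ensembl gene. The submitters' processing notes name CASAVA 1.8.2, STAR 2.6.1c, featureCounts 1.5.2 and the GRCh38 build. How strand and multiply mapped reads were handled in counting is not given in the sources used here. Sample titles give one treatment time of 2 h, and the 3 h of Leptomycin B come from the protocol.

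Identifiers were matched to GENCODE 44 (56948 of 58051 had a symbol), and 18780 genes had no count. Exonic and canonical lengths and exon overlaps were also taken from GENCODE 44. The paper names an earlier GENCODE version for its RNA-seq counts. Lengths, ratios per base and overlaps may therefore differ from those of the exons that were counted. Genes above 1 CPM in at least 3 libraries were kept (16974). CPM are counts scaled to the library total over these genes after TMM scaling. The test was edgeR 4.0.16 (R 4.3.3) quasi-likelihood with Benjamini-Hochberg adjustment over all tested genes, and genes were called at an adjusted p under 0.05 if they also passed 1.3-fold. Deviations from the group means correlated at 0.531, 0.691 and 0.273 between libraries of the same replicate number and at -0.573 to 0.146 otherwise, so the numbers were taken as pairs and the replicate block was fitted too. The biological coefficient of variation was 0.0989 without and 0.0406 with the block.

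Alternatives used DESeq2 1.42.0, limma 3.58.1 (voom), other scalings and filters, and each library left out. The genes named are the members, MTREX, DIS3L, the substrate RNAs, tested genes sharing exons with a member, the 3 genes nearest to ZCCHC8 in pattern, TPR, CYP1A1 and TIPARP. Genes starting near a member and genes sharing exons with the substrate RNAs were added. The members and lists were chosen with earlier results of these data known. Scripts were tested on simulated data.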

Additional observations from a re-analysis of the deposited data

How the results depend on the processing

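No member and no pathway gene was called under any alternative run. The count over all tested genes was 1 and depended on the setting. It was 201 with the replicate block, 11 with DESeq2, 0 with scaling by library size alone, 39 with no filter on low counts, and 0 to 5 when each library was left out. With the replicate block and settings added after the data were seen, it was 31 with DESeq2, 740 by adjusted p alone, 254 with scaling by library size alone, and 141, 160 and 137 without pair 1, 2 or 3. The median log2 fold change of the members was 0.0046, ran from -0.0116 to 0.0514 when each library was left out, with the highest value without LMB+auxin replicate 2, and was 0.0310 with the block without pair 2. Of 190 alternative member values over 19 settings, 17 changed sign, all at or under 0.061 in size, and 0 changed the call. DIS3, EXOSC10, EXOSC3, RBM7 and ZCCHC8 kept their sign but not their size. When each library was left out, DIS3 ran from 0.032 (without LMB replicate 2) to 0.18 (without LMB+auxin replicate 2), EXOSC10 from 0.00083 (without LMB replicate 2) to 0.080 (without LMB replicate 3), EXOSC3 from -0.099 (without LMB+auxin replicate 1) to -0.015 (without LMB+auxin replicate 2), RBM7 from -0.22 (without LMB+auxin replicate 2) to -0.034 (without LMB replicate 2) and ZCCHC8 from 0.10 (without LMB+auxin replicate 1) to 0.24 (without LMB+auxin replicate 2). In the same fits ZFC3H1 ran from -0.068 to 0.044, C1D from -0.113 to 0.061, MPHOSPH6 from -0.030 to 0.115 and ZC3H3 from -0.112 to 0.010. ZFC3H1 was also at 0.0012 with DESeq2, 0.0013 with DESeq2 size factors in edgeR, 0.00045 with the block and DESeq2, and 0.0012 and 0.012 with the block without pair 1 or 3. With the block, C1D was at 0.045 without pair 2, and ZC3H3 at 0.031 and PABPN1 at -0.0025 without pair 3. The cause of these shifts was not tested. The replicate block changed no call of a member. With 3 libraries a group, changes of RBM7 beyond 1.3-fold are not resolved without the block.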
